A study of Homo sapiens with 4 samples.

Results

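The replication-dependent histone genes are the genes listed as mRNA whose older symbols begin with HIST1H, HIST2H, HIST3H or HIST4H. The rule found 70 of the 40205 listed genes. They were 6 H1, 17 H2A, 18 H2B, 14 H3 and 15 H4 genes. RNA-seq values were compared between 2 libraries of lung cancer cells transfected with a negative control siRNA (NC 1 and NC 2) and 2 transfected with siRNA against circZFR (si-circZFR 1 and si-circZFR 2), a circular RNA from the *ZFR* gene. Transfection lasted 24 h in all 4 libraries, and the cells were of one line grown in RPMI with fetal calf serum. Below, the former are the control libraries and the latter the silenced libraries, and a pair of values gives replicate 1 and then replicate 2. The question was which RNAs change when circZFR is silenced. The labels do not say whether libraries of a group came from separate cultures, so p-values measure the spread between these libraries, which may be technical.

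Histones of the H2A, H2B, H3 and H4 classes form the core around which DNA is wrapped, and H1 proteins bind the linker DNA between cores. Most of the core and linker histone supply of a dividing cell comes from clustered, intron-poor genes that are transcribed in S phase under NPAT. Their mRNAs normally carry no poly(A) tail. They end instead just after a stem-loop that is bound by SLBP and cut with the help of the U7 snRNP, although some of these genes can also give longer, polyadenylated transcripts.

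The recovered totals ran from 11040050 to 12816868 reads per library. *ZFR*, the host gene of the circle, had 1437 and 1740 reads in the control libraries against 284 and 267 in the silenced libraries. Its scaled RPKM (reads relative to gene length and library total, scaled between libraries) fell from 29.1 ± 4.72 to 4.91 ± 0.422 (SD, n = 2 each), a log2 fold change of -2.34 (SE 0.19, FDR = 0.0149, limma). Reads of the circle and of the linear mRNA cannot be told apart in these values. The article, by RT-PCR, reported that its siRNA left *ZFR* without a detectable change. The difference from the value here was not tested. The labels name the line H1299 and the design text names A549. *CDKN2A*, which A549 cells are known to lack, was listed at 0 in all 4 libraries. The aldo-keto reductase gene *AKR1B10*, known to be high in A549 cells, was at 1287 to 1710 scaled RPKM. Among 6 markers of blood, endothelial and fibroblast cells, the blood cell genes *PTPRC* and *CD3E* were listed at 0, and the summed level was 56.9 to 83.3 scaled RPKM, nearly all of it *CD68*.

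The 3′ ends of the genes described below show the feature that sets these mRNAs apart. The annotated canonical transcripts (GENCODE v44, build GRCh38) were searched after the stop codon for the histone stem-loop, a stem of 6 base pairs around a loop of 4 bases. The search took a fixed pattern of letters for this stem-loop and not any stem and loop. The match in the members is therefore partly set by the pattern. All 70 members held the pattern, 23 to 68 bases after the stop codon, against 7 of the 19631 other protein-coding genes (0.0357%). The members had 10 different stem-loops, and the commonest was shared by 40 of them. In the sequences below, printed as DNA 5′ to 3′ on the gene's strand, capitals mark the stem-loop. They are shown for the member with the most reads in each class and cluster, for the other members with an unadjusted p below 0.05, and for HIST1H2BC, which starts back to back with HIST1H2AC.
HIST1H2BK: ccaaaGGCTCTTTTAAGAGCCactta
HIST1H2BC: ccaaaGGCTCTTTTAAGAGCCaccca
HIST1H1C: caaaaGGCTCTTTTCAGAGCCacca
HIST1H2AC: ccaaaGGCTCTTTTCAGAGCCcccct
HIST1H4C: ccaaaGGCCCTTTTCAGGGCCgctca
HIST2H2BE: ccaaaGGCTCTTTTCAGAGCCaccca
HIST3H2A: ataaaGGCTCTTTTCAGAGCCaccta
HIST1H3H: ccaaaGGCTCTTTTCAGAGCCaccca
HIST1H3E: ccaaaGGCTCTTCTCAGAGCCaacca
HIST4H4: caaaaGGCCCTTTTCAGGGCCccca

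The genes lie at chr6:27146361-27146855 on the minus strand (HIST1H2BK, current symbol H2BC12), chr6:26055740-26056470 minus (HIST1H1C, H1-2), chr6:26124145-26139116 plus (HIST1H2AC, H2AC6), chr6:26103933-26104337 plus (HIST1H4C, H4C3), chr1:149884459-149886682 minus (HIST2H2BE, H2BC21), chr1:228434777-228457873 minus (HIST3H2A, H2AC25), chr6:27810051-27811300 plus (HIST1H3H, H3C10), chr6:26224199-26227473 plus (HIST1H3E, H3C6), chr12:14767999-14771131 minus (HIST4H4, H4C16) and chr6:26086317-26123926 minus (HIST1H2BC, H2BC4) of GRCh38. HIST1H2BK and HIST1H2BC shared 1 stem-loop, and HIST1H1C, HIST1H2AC, HIST2H2BE, HIST3H2A and HIST1H3H shared the commonest one. In 69 of the 70 canonical transcripts the annotated end lay within 40 bases of the stem-loop. The exception was HIST2H2BE, whose transcript went on for 1729 bases beyond it.

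Promoters differed between the classes. RefSeq promoter windows of GRCh38.p14, 250 bases before to 50 after the start, were matched for 65 of the 70 members and searched on both strands. CCAAT (or ATTGG) was in 55 of 65 windows against 35.7% of all 27305 windows, in all 6 H1, 16 H2A, 18 H2B and 12 H3 windows and in 3 of 13 H4 windows. TATAAA (or TTTATA) was in 43 of 65 against 12.0% of all windows. The octamer ATTTGCAT (or ATGCAAAT) was in 26 of 65 against 1.80%, in 11 of 16 H2A, 14 of 18 H2B and 1 of 12 H3 windows and in none of the 6 H1 and 13 H4 windows. These matches are descriptions of letters in a window and not of binding. Windows of H2A and H2B genes that start back to back largely overlap, so the same match can be counted for both. The windows of the members with the most reads in the H2B and H2A classes are shown, at chr6:27146809-27147108 on the minus strand and chr6:26123922-26124221 on the plus strand, with every match of the 3 motifs in capitals. Matches that overlap run together in capitals.
HIST1H2BK: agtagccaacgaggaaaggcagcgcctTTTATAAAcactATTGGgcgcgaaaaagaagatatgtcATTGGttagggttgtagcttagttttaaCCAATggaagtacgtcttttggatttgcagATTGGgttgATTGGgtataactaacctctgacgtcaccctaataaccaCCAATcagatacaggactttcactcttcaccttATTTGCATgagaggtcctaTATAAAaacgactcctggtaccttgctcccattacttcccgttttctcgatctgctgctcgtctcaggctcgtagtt
HIST1H2AC: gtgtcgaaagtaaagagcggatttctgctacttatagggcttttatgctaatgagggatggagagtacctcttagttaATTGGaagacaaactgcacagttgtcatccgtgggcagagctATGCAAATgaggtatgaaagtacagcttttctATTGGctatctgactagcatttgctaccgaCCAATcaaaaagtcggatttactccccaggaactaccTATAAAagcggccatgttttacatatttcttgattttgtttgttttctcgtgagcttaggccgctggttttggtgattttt

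Histone reads were few. Over the 4 libraries the 70 members had 2106 reads, 548 and 663 of them in the control libraries and 453 and 442 in the silenced ones. As shares of all reads these were 0.00458% (exact 95% binomial interval 0.00421 to 0.00498) and 0.00517% (0.00479 to 0.00558) in the control libraries, and 0.00402% (0.00366 to 0.00441) and 0.00400% (0.00364 to 0.00439) in the silenced ones. The silenced shares were the lowest, and their intervals overlapped that of NC 1 but not that of NC 2. Intervals here cover counting error only.

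Of the members, 56 had at least 1 read, 23 had at least 10 in all and 33 had 1 to 9. The other 14 were listed at 0 in every library, among them the genes known as testis-restricted, HIST1H1T, HIST1H2AA, HIST1H2BA and HIST3H3. For a count of 0 the one-sided 95% upper limit of 3 reads allows up to 0.468 to 0.543 RPKM for a gene of 500 bases. The Poisson intervals given below are two-sided. HIST1H2BK alone took 34.2% of the histone reads, HIST1H2BK and HIST1H2AC together 49.1%, and the 5 members with the most reads 65.7%. By class, H2B genes held 52.1% of the reads, H2A 19.8%, H4 10.5%, H3 9.02% and H1 8.55%. By cluster, the 55 HIST1 genes on chromosome 6 held 87.9% and the 11 HIST2 genes 8.07%.

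**Figure D1:**
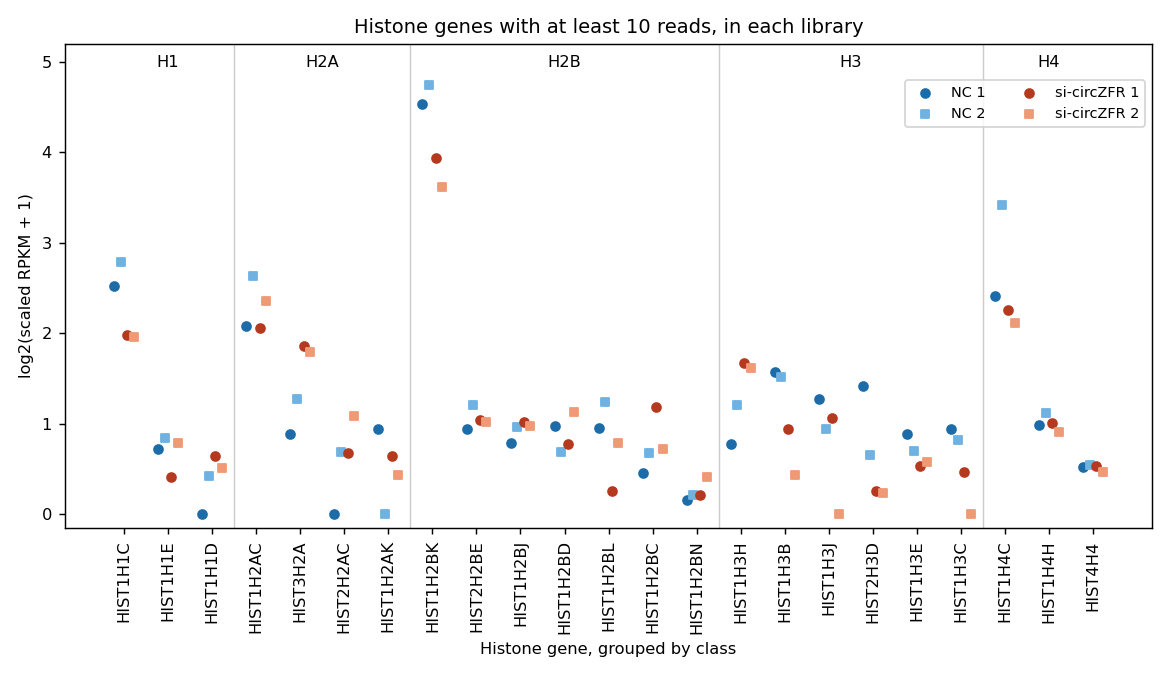
Level of the 23 histone genes with at least 10 reads, as log2(scaled RPKM + 1) on the vertical axis, with 1 point for each library and the genes grouped by class. HIST1H2BK lies above the other genes in all 4 libraries, and most others lie near or below 1 scaled RPKM (1 on the axis), where few reads set the value.

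Per length, the order of the members was led by HIST1H2BK at a mean of 18.0 RPKM, followed by HIST1H4C at 5.12, HIST1H1C at 4.04 and HIST1H2AC at 3.91. Then came HIST3H2A at 1.88 and HIST1H3H at 1.60. HIST1H3B was at 1.23 RPKM and HIST2H2BE at 1.07. HIST1H2BK stood apart from all others in every library, while the ranges of HIST1H4C, HIST1H1C and HIST1H2AC over the libraries overlapped. Among members with at least 10 reads, those from HIST1H2BJ at 0.922 RPKM down to HIST1H2BN at 0.195 rested on 10 to 85 reads in all, and neighbours in that order overlapped over the libraries.

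Most histone reads lay on genes whose length in the deposited values is longer than the stem-loop form of the mRNA, although a longer gene also collects more reads. The length recovered for each gene was set against its coding length. For 16 members it was at least 330 bases longer, and these held 1561 reads (74.1%), with a median of 39.5 reads a gene. For 40 members it was at most 144 bases longer, and these held 545 reads (25.9%), with a median of 4 reads a gene. Per length the share of the 16 was 53.1% to 58.2% of the summed scaled RPKM over the libraries, and HIST1H2BK alone had 721 of their reads. The 14 members with no read have no length to recover. This split was chosen after the values were seen. The recovered length of HIST1H2BK was 839 bases against 495 for its canonical GENCODE transcript, and that of HIST1H2AC was 1698 against 519.

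**Figure D2:**
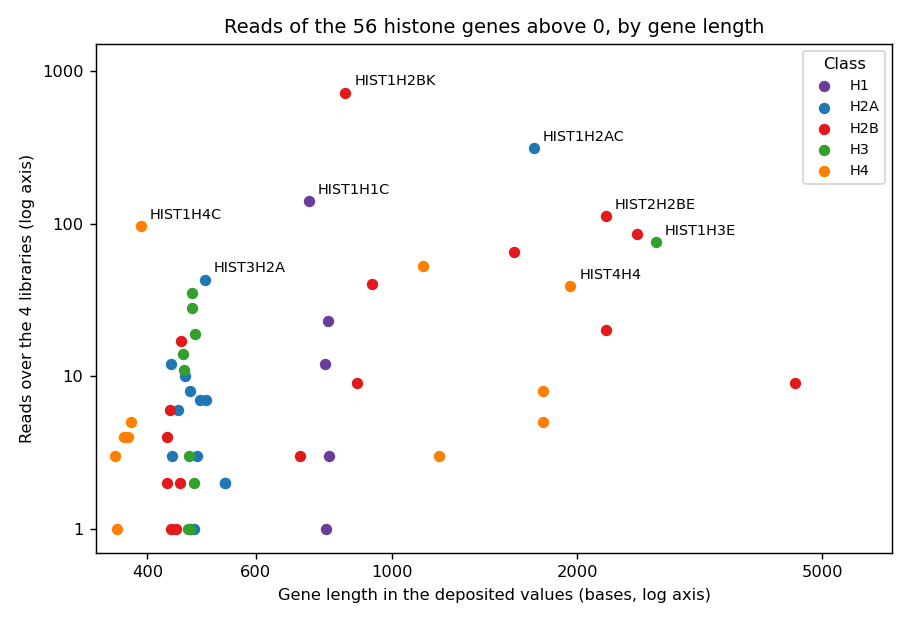
Reads summed over the 4 libraries against gene length in the deposited values, both on log axes, for the 56 histone genes with reads, coloured by class. Most genes under 500 bases have fewer than 20 reads, with HIST1H4C (96) and HIST3H2A (43) highest there.

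The summed histone level was lower in both silenced libraries, and HIST1H2BK made the largest single difference. The sum over the 70 genes was 54.4 and 70.4 scaled RPKM in the control libraries against 43.7 and 38.0 in the silenced libraries. These groups did not overlap. The log2 ratio of the group means was -0.61, against an SD between replicates of 0.211, and it was -0.45 with HIST1H2BK left out, which was computed after the values were seen. After a smooth correction of each library for gene length the ratio was -0.25. Raw reads of the members other than HIST1H2BK were 328 and 417 in the control libraries against 314 and 326. The library totals were 11959335 in NC 1 and 12816868 in NC 2, against 11266089 and 11040050. Relative to these totals NC 1 held the smallest share of such reads, and only NC 2 lay above the silenced libraries. The make-up of the libraries also differed between groups. Genes listed as ncRNA took 14.2% and 17.0% of reads in control against 11.7% and 7.59% in silenced libraries, and those listed as mRNA 75.7% and 73.9% against 77.9% and 84.0%. Their part in the histone values was not tested. In bulk RNA, fewer cells in S phase and less histone RNA per cell cannot be told apart.

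Single genes were tested with limma on log2(scaled RPKM + 1), over all 14814 genes above 1 CPM (reads relative to the library total) in at least 2 libraries. Fold changes on this scale understate the change of low genes. A call was an FDR (Benjamini-Hochberg adjusted p) below 0.05 with a log2 fold change beyond 1 in either direction. By this rule 149 genes were called (1.01%), 93 lower after circZFR siRNA (0.628%) and 56 higher (0.378%). With library size scaling alone the split was 93 lower and 162 higher. Among the histone genes 11 passed the filter, holding 82.6% of the histone reads, and 0 of 11 were called. At an unadjusted p below 0.05, where 22.4% of all genes lay, there were 4 of 11: HIST1H2BK and HIST1H1C with negative values and HIST3H2A and HIST1H3H with positive ones. The last 2 passed the filter only through the silenced libraries, where they were high, so their p-values and signs support nothing about direction. Limma-voom on the recovered reads also called 0 of the 11, and 2.46% of all genes. The median log2 fold change of the 11 was -0.10, against 0.0031 over all genes. Of the 11, 7 were negative and 4 positive, where 49.7% of all genes were negative. The 4 positive include HIST3H2A and HIST1H3H, so the count of signs and the median depend on the filter. With no filter, over 56 members, the median was -0.12. The median of the 11 was -0.028 after the correction for gene length.

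Gene length moved with these values. Across the 14814 tested genes, Spearman's rho of gene length with the difference between NC 2 and NC 1 was -0.393, with that between si-circZFR 2 and si-circZFR 1 it was 0.0160, and with the log2 fold change it was 0.316. These describe genes that share libraries. Values after the length correction are given below. By the same rule the corrected fit called 193 genes (1.30%), among them 2 histone genes, HIST3H2A and HIST1H3H, both of which the filter let in only through the silenced libraries.

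The linker histone gene with the most reads was HIST1H1C, which encodes an H1 found in most cell types. It had 41 and 49 reads in the control libraries against 25 and 26 after silencing. The scaled level was 5.32 ± 0.813 RPKM in control and 2.92 ± 0.0431 in silenced libraries (SD, n = 2 each), with no overlap between the groups. The log2 fold change was -0.68 (SE 0.19, FDR = 0.109, limma), and -0.31 after the length correction. HIST1H1E had 6 and 7 against 3 and 7 reads, which overlap, and HIST1H1D had 0 and 3 against 5 and 4 reads. Neither reached the filter.

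Among the H2A genes the reads of HIST1H2AC overlapped between groups, and those of HIST3H2A did not. HIST1H2AC had 65 and 100 reads in the control libraries against 62 and 86 in the silenced ones, and its log2 fold change was -0.15 (SE 0.24, FDR = 0.745, limma), and -0.066 after the length correction. HIST3H2A, from the small cluster on chromosome 1, had 5 and 8 reads in the control libraries and 15 in each silenced library. Both silenced values were higher, at 2.61 and 2.46 scaled RPKM against 0.854 and 1.42. The exact 95% Poisson interval of the 8 reads in NC 2 was 3.45 to 15.8 and that of 15 reads was 8.40 to 24.7, so the intervals of single libraries overlapped. Its log2 fold change was 0.74 (SE 0.19, FDR = 0.0961, limma). HIST3H2A passed the filter only through the silenced libraries. After the length correction it was 1.22 with FDR = 0.0298 (limma) and passed the call.

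The remaining H2A genes were near the limit of counting. HIST2H2AC had 0 and 3 against 3 and 6 reads, and HIST1H2AK had 5 and 0 against 3 and 2. The near-identical copies HIST2H2AA3 and HIST2H2AA4 had 2 reads each in all, with reads shared between them uncertain.

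The member with the most reads was an H2B gene. HIST1H2BK had 220 and 246 reads in the control libraries against 139 and 116 after silencing. Its groups did not overlap, and the exact 95% Poisson intervals, 192 to 251 and 216 to 279 against 117 to 164 and 95.9 to 139, were also apart. Its scaled level was 24.0 ± 2.55 RPKM in control and 12.8 ± 2.17 in silenced libraries (SD, n = 2 each). The log2 fold change was -0.86 (SE 0.19, FDR = 0.0741, limma), which did not pass the call. It lay between -1.02 and -0.70 with any 1 library left out, and at -0.54 after the length correction.

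HIST2H2BE, the member with a long annotated transcript beyond its stem-loop, had 24 and 33 reads against 27 and 28. HIST1H2BD had 18 and 11 against 13 and 23. Both overlapped between groups, with log2 fold changes of -0.044 (SE 0.16) and 0.12 (SE 0.18), and of -0.028 and 0.23 after the length correction. HIST1H2BC had 11 and 17 reads in the control libraries against 37 and 20 after silencing, which did not overlap. The gap was small, with NC 2 at 0.599 and si-circZFR 2 at 0.651 scaled RPKM. Its log2 fold change was 0.39 (SE 0.19, FDR = 0.274, limma), and 0.38 after the length correction. Without si-circZFR 1 it was 0.16. Below the filter, HIST1H2BJ had 8 and 10 against 11 and 11 reads, HIST1H2BL had 5 and 7 against 1 and 4, and HIST1H2BN had 3 and 4 against 4 and 9.

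The tested H3 genes had values of both signs, and neither was called. HIST1H3E had the most reads, 27 and 19 in the control libraries against 14 and 16 after silencing, with no overlap and a log2 fold change of -0.24 (SE 0.14, FDR = 0.335, limma), and -0.26 after the length correction. HIST1H3H had 4 and 7 reads in the control libraries and 12 in each silenced library, or 1.01 ± 0.415 against 2.13 ± 0.0905 scaled RPKM. Its groups did not overlap, and its log2 fold change was 0.65 (SE 0.19, FDR = 0.119, limma). It passed the filter only through the silenced libraries, and after the length correction it was 1.15 with FDR = 0.0323 (limma) and passed the call.

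Other H3 genes with at least 10 reads stayed below the filter. All but HIST1H3J were lower in both silenced libraries, as were 26.9% of all genes with at least 10 reads. HIST2H3D and HIST1H3C reached 10 reads mainly through the control libraries. HIST1H3B had 11 and 10 reads against 5 and 2. HIST2H3D had 9 and 3 against 1 and 1, and HIST1H3C had 5 and 4 against 2 and 0. HIST1H3J had 8 and 5 against 6 and 0, which overlap. The copies HIST2H3A and HIST2H3C were listed at 0, and their reads could be split with HIST2H3D.

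H4 proteins are encoded by several genes with the same product. HIST1H4C had 20 and 43 reads in the control libraries against 17 and 16 in the silenced ones, with no overlap. NC 2 was far above the other 3 libraries, at 9.71 scaled RPKM against 4.34 in NC 1 and 3.77 and 3.34 in the silenced libraries. The log2 fold change was -0.73 (SE 0.32, FDR = 0.241, limma). Without NC 1 it was -1.24 with FDR = 0.0179 (limma) and passed the call, as did 7.01% of all genes there. Without NC 2 it was -0.23, and after the length correction it was -0.21. HIST1H4H had 13 and 15 against 13 and 12 reads and HIST4H4 had 10 and 10 against 10 and 9, both overlapping. The log2 fold change of HIST1H4H was -0.10 (SE 0.14, FDR = 0.711, limma), and it turned to 0.12 after the length correction. The copies HIST2H4A and HIST2H4B had 8 and 5 reads in all.

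**Figure D3:**
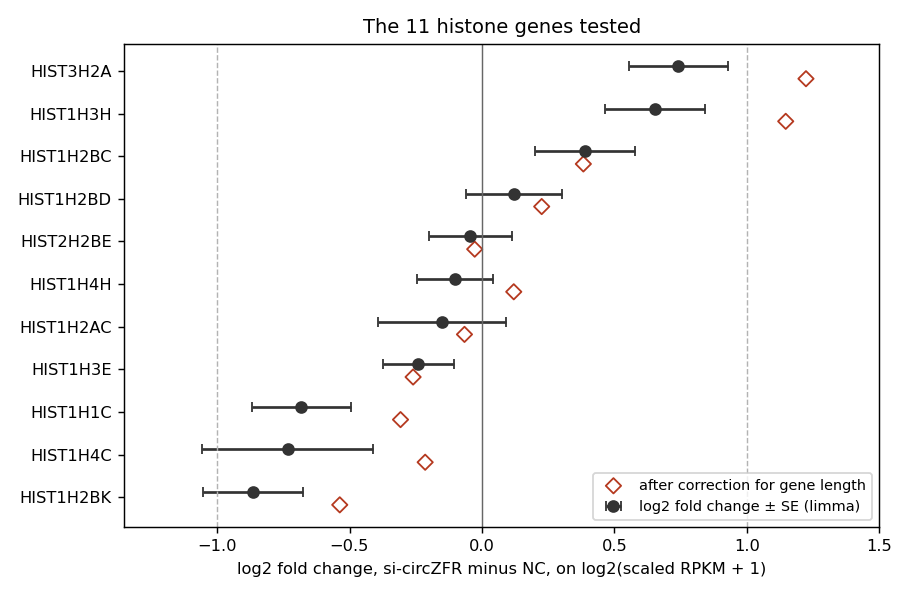
Log2 fold changes (si-circZFR minus NC, on log2(scaled RPKM + 1)) of the 11 histone genes tested, as filled points with standard errors, and the same after correction for gene length as open diamonds. Dashed lines mark a change of 1 in either direction. No filled point passes them, and after the correction HIST3H2A (1.22) and HIST1H3H (1.15) do, which passed the filter only through the silenced libraries.

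Order between groups was also read over the 23 members with at least 10 reads, on scaled RPKM. The silenced libraries were both lower for 8 members, both higher for 5, and overlapped the control libraries for 10. Over the 18056 genes with at least 10 reads these shares were 26.9% below and 26.7% above. The 45 members with reads that were not tested had 100 and 115 reads in the control libraries against 79 and 72.

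Levels were also read for neighbouring histone genes that start back to back. In GRCh38, 25 members formed 13 pairs on opposite strands with starts at most 500 bases apart, and 12 of these pairs joined an H2A with an H2B gene. The RPKM of the partners did not overlap over the libraries in 5 pairs, overlapped in 6 and was listed at 0 for both partners in 2. Among the 5, HIST1H2BK, 250 bases from HIST1H2AH, was at a mean of 18.0 RPKM against 0.134. HIST1H2AC, 218 bases from HIST1H2BC, was at 3.91 against 0.734, and HIST3H2A, 229 bases from HIST3H2BB, was at 1.88 against 0.0922. The partners HIST1H2AH and HIST3H2BB had only 3 and 2 reads in all. Another of the 5, HIST1H2BF beside HIST1H2AD, rested on 1 read in each library against 0, which counting cannot separate. HIST2H2BE, 235 bases from HIST2H2AC, was at 1.07 against 0.597 RPKM, with overlap over the libraries.

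Histone supply genes were listed beside the members. They are genes of histone mRNA transcription, 3′ end processing and decay, and genes that handle new histone proteins, such as chaperones. All 44 were tested, 26 negative and 18 positive, where 49.7% of all genes tested were negative. Their median log2 fold change was -0.045, and -0.15 after the length correction, with 0 called. At an unadjusted p below 0.05 there were 9 lower and 3 higher, where 11.8% of all genes were lower and 10.5% higher. *SLBP*, which binds the stem-loop, had 540 and 699 reads in the control libraries against 541 and 485, with a log2 fold change of -0.29 (SE 0.20, FDR = 0.430, limma). *NPAT*, which turns on histone transcription in S phase, had 176 and 201 against 164 and 123 reads, at -0.31 (SE 0.19, FDR = 0.381, limma). Its groups did not overlap, while those of *SLBP* did in scaled RPKM. The smallest p-values of the list were those of *LSM10*, a U7 snRNP subunit, at -0.77 (FDR = 0.0839), *CSTF2*, a cleavage factor, at -0.72 (FDR = 0.0849) and *LSM11*, also of the U7 snRNP, at -0.70 (FDR = 0.107, limma).

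Histone mRNA is made in S phase, so 57 genes of DNA replication were set beside the members. The lists of supply and S phase genes shared 5 genes. Of the 57, all tested, 45 were negative and 12 positive, where 49.7% of all genes tested were negative, and 0 were called. At an unadjusted p below 0.05 there were 12 lower and 0 higher, where 11.8% of all genes were lower and 10.5% higher. The median log2 fold change was -0.22, against 0.0031 over all genes, and it was -0.17 after the length correction. The smallest p-values were those of *MCM5*, a helicase subunit, at -0.71 (FDR = 0.0992), *CCNE2*, the cyclin E2 gene, at -0.62 (FDR = 0.111) and *GINS1*, a helicase partner, at -0.59 (FDR = 0.117, limma).

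Other RNAs without a poly(A) tail show how these libraries held such transcripts. Of 26 listed, 7 passed the filter, 6 negative and 1 positive, where 49.7% of all genes tested were negative. The median log2 fold change was -0.54, and -0.24 after the length correction. The count of signs and the median include *RN7SK* and depend on the filter. With no filter, over 22 RNAs, the median was -0.081. Called lower were 2 (*RMRP* and *RN7SK*, the latter let in by the filter only through the control libraries), against 0.628% of all genes. *RMRP*, the RNA of the MRP ribonuclease, had 86 and 81 reads in the control libraries against 21 and 7, and fell by 2.50 on the log2 scale (SE 0.39, FDR = 0.0473, limma). *RN7SK*, which binds the elongation factor P-TEFb, had 18 and 20 reads against 4 and 4, and fell by 1.56 (SE 0.17, FDR = 0.0298, limma). It passed the filter only through the control libraries, where it was high, so its call and sign support nothing about direction. *RN7SL2*, of the signal recognition particle, was at -0.81 (FDR = 0.0723, limma), and *RN7SL1*, of the same particle and named after its values were seen, was at -0.053 (FDR = 0.946, limma) with 53 and 106 against 57 and 97 reads. Of the 3 most abundant, the box C/D RNA *SNORD3A* had 686 and 1718 reads against 461 and 1377, and the vault RNA *VTRNA1-3* 35 and 41 against 19 and 37. Both overlapped in scaled RPKM. The nuclear RNA *MALAT1* had 6144 and 2485 reads against 7838 and 8785, with no overlap and a log2 fold change of 1.02 (FDR = 0.173, limma). The U7 snRNA gene *RNU7-1* had 1, 2, 0 and 1 reads. The part of RNA selection in the histone values was not tested.

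**Figure D4:**
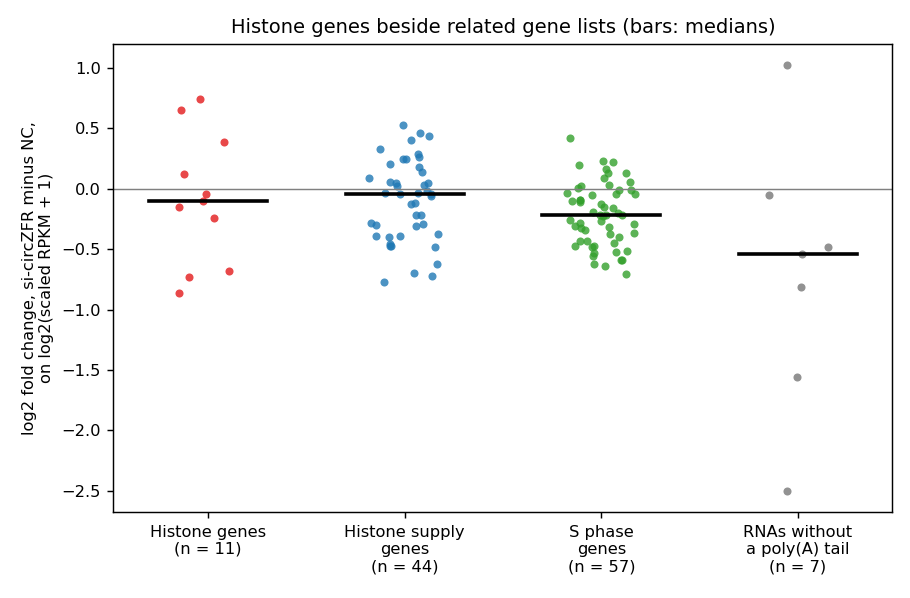
Log2 fold changes (si-circZFR minus NC) of single genes in 4 lists, with the number of genes tested under each name and a bar at the median. The medians, without the length correction, are -0.10 for histone genes, -0.045 for histone supply genes, -0.22 for S phase genes and -0.54 for RNAs without a poly(A) tail. The medians of the histone genes and of the tailless RNAs include genes that the filter let in only through the group where they were high.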

How the data were processed

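RNA-seq (Ion Proton) was measured in 4 libraries. The authors deposited RPKM values per gene. The sources used here do not give the RNA selection, aligner, strand or annotation. The article names hg38 and the submitters' processing notes name GRCh37, the files hold no coordinates, and so GRCh38 was used by gene symbol alone. Its batch removal could not be repeated with 2 against 2 libraries.

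Whole reads, gene lengths and library totals were recovered from the RPKM steps, using small RNA genes of known length. Whole reads were obtained for 24281 of 24289 genes above 0 (99.97%), within the rounding of the stored decimals. Lengths are ambiguous by whole multiples for genes with few reads, so 2 histone genes were set to the smallest multiple reaching the coding length. Another 181 genes were set to a multiple reaching most of the coding length or, for short RNAs, near the annotated length. RPKM was scaled by an unweighted trimmed mean, cutting 30% of log ratios and 5% of mean levels. The test took genes with more than 1 CPM in 2 or more libraries and used limma 3.58.1 (R 4.3.3, trend) on log2(scaled RPKM + 1), two-sided, and the analysis was tested on simulated data. The rule for named histone genes took the 20 with the highest mean RPKM among those with at least 10 reads, the most read gene of each class and cluster, testis-restricted genes and near-identical copies. For the other lists it took SLBP, NPAT, the 3 smallest p-values, all calls and the 3 most abundant tailless RNAs. The members and lists were chosen with earlier results of these data known. One marker of the cell line is not reported here.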

Additional observations from a re-analysis of the deposited data

How the results depend on the processing

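The number of genes called, 149, was 255 with library size scaling alone (median of all genes 0.15), 8 with an RPKM filter, 0 with no filter, 59 with a pseudocount of 0.1, 365 with limma-voom, 34 without a trend, 293 with a replicate block and 321 with the block and the length correction. It ran from 0 (without NC 2) to 1015 (without NC 1) with 1 library left out, and was 20 without si-circZFR 2. The number of histone genes called, 0, was 2 with the length correction and 2 with the block and that correction (HIST3H2A and HIST1H3H, which the filter let in only through the silenced libraries), where all genes called were 193 and 321, and ran from 0 to 1 with 1 library left out (HIST1H4C without NC 1). Replicate numbers name no shared batch, and the deviations of the numbers correlated at 0.0838, so the block was used only here. It called 0 histone genes. With 1 library left out the median of the histone genes ran from -0.25 to -0.024, of the supply genes from -0.10 to -0.035, of the S phase genes from -0.34 to -0.11 and of the tailless RNAs from -0.95 to -0.098. The supply median was 0.14 with library size scaling, and -0.15 with the length correction, with or without the block. The S phase median was -0.035 with library size scaling, and the tailless median -0.081 with no filter. *ZFR* had FDR = 0.227 (log2FC -2.34) with no filter, and -2.19 (FDR = 0.0569, limma) without NC 2, and ran from -2.51 to -2.19 with 1 library left out. The summed histone ratio was -0.25 with the length correction. Signs turned for HIST1H2AC with library size scaling (0.0059), without NC 2 (0.12) and without si-circZFR 1 (0.0045), for HIST2H2BE with library size scaling (0.058) and without NC 2 (0.092), for HIST1H2BD without NC 2 (-0.024) and without si-circZFR 2 (-0.054), and for HIST1H4H with the length correction (0.12), with and without the block. With 1 library left out HIST1H2AC ran from -0.42 to 0.12, HIST2H2BE from -0.18 to 0.092 and HIST1H2BD from -0.054 to 0.30. Of 158 alternatives for single histone genes, 144 kept both direction and side of the threshold. Low reads limited most members: the filter left out 59 of 70, and with no filter 56 were tested and 0 called.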
